A study of Mus musculus with 8 samples.

Results

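The mouse genes for 7 surface molecules with which antigen-presenting cells stimulate or restrain T cells were followed across LPS stimulation, CD14 deficiency and calcium chelation in cultured macrophages. They are Cd40, Cd86, Cd80, Icosl, Cd274, Pdcd1lg2 and Cd83. The 7 genes were taken by name, with every probe set that the platform annotation assigns to them, which gave 13 of 22690 probe sets and 7 of 12394 genes. RNA came from bone marrow-derived macrophages of mice aged 6 to 8 weeks, grown for 7 days with M-CSF and 10% serum. The 8 groups were Cd14-/- C57BL/6 macrophages at 0, 6 and 24 h of LPS, wild-type C57BL/6 macrophages given LPS together with EGTA for 6 and 24 h, and wild-type C57BL/6 macrophages at 0, 6 and 24 h of LPS. LPS was used at 1 µg/ml. EGTA, a chelator of extracellular calcium, was given at 2 mM according to the label of the 24 h culture, and the label of the 6 h culture does not state the dose. Cells called 0 h received no LPS and were harvested 24 h after plating, and no culture with EGTA alone is among the 8. Each group is 1 array, so no difference between 2 arrays has a replicate check, and the number of mice behind each culture is not stated in the labels.

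CD40 is a receptor of the TNF receptor family that lets T cells carrying CD40 ligand activate the presenting cell. CD80 and CD86 bind CD28, which promotes T cell activation, and CTLA-4, which restrains it, while ICOS ligand (Icosl) binds the CD28 relative ICOS. PD-L1 (Cd274) and PD-L2 (Pdcd1lg2) bind PD-1 and dampen T cell responses, and CD83 is a maturation marker that stabilises MHC class II and CD86 on the surface of presenting cells. LPS acts through TLR4, to which CD14 delivers it, and macrophages activated in this way are known for raising CD40, CD86 and PD-L1.

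The promoter windows of the PD-1 ligand genes are shown because, of these neighbours on mouse chromosome 19, Cd274 rose with LPS while Pdcd1lg2 lay at or near the array floor. Each window runs from 250 bases before to 50 bases after the gene start in the RefSeq table (build GRCm38.p6), in which 4 of the 7 genes had a window. The Cd274 window is chr19:29367188-29367487 and the Pdcd1lg2 window is chr19:29410669-29410968, both on the plus strand. Capitals mark matches to 5 motifs searched on both strands: the NF-kB consensus, the interferon-stimulated response element core GAAANNGAA, the STAT core TTCNNNGAA, the NFAT core GGAAA and the AP-1 motif TGANTCA.
Cd274: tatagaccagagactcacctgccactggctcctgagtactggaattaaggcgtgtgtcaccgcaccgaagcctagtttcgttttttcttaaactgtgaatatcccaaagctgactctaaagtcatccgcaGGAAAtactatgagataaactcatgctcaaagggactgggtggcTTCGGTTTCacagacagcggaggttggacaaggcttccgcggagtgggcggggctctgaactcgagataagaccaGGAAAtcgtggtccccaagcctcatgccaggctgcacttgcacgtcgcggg
Pdcd1lg2: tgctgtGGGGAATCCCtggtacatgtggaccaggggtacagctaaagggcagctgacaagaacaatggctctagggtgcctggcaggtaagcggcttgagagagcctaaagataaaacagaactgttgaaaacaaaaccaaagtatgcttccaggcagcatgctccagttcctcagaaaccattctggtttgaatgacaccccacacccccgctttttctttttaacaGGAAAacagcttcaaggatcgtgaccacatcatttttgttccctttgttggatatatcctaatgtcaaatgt
Positions count from the start of this table, which for Icosl and Pdcd1lg2 is the outer start of the gene in RefSeq but for Cd274 lies 5331 bases and for Cd80 1503 bases downstream of it. The Cd274 window held the interferon response core on the minus strand, beginning 76 bases before the start, and the NFAT core 120 bases and 1 base before it. The Pdcd1lg2 window held the NF-kB consensus, read on both strands, 244 bases before the start and the NFAT core 22 bases before it. In the other windows, Icosl held the NF-kB consensus 111 bases and Cd80 the AP-1 motif 42 bases before the start. No match overlapped a match to another motif in these 4 windows. Over all 32851 windows of the table, 8.46% held the NF-kB consensus, 8.56% the interferon response core, 8.30% the STAT core, 7.81% the AP-1 motif and 61.3% the NFAT core. These matches describe letters and not binding.

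Levels are intensities as the authors deposited them, quantile normalized here over the 8 arrays. Values under 38.4, the 40th percentile of all values, were set to that floor, and the median of all values was 88.2. A gene was compared between 2 arrays where the brighter one exceeded that median, and the probe set of highest mean log2 level stood for the gene. With this rule 6 genes were compared in every contrast and Pdcd1lg2 in none. Levels are read within a probe set and never between genes. The arrays bear out the genotype label, with Cd14 at the floor on the 3 CD14-deficient arrays and between 3849 and 12515 on the 5 wild-type arrays. The summed macrophage markers lay between 51702 and 66261 on all arrays, with 8 of 9 markers measured. Cd14 itself is part of this sum, so its loss lowers the sum on the 3 CD14-deficient arrays. A sum over probe sets is led by the brightest ones, and within it Fcgr1 was at 2833 in unstimulated CD14-deficient cells against 6842 in unstimulated wild-type cells. Natural killer markers lay at the floor, and no B cell marker exceeded the median. Neutrophil markers summed to between 321 and 806, with 3 of 7 at the floor on all arrays. Among them S100a8 was at 90.6, 236 and 507 in CD14-deficient cells at 0, 6 and 24 h and at 138, 99.7 and 432 in wild-type cells, and Camp at 24 h was at 107 in CD14-deficient cells against 38.6 in wild-type cells. The part of these marker differences in the results for the 7 genes was not tested. Among T cell markers Cd3d, Cd3e, Cd3g, Cd8a and Cd5 were at the floor while Cd28 and Cd4 exceeded the median on some arrays. Cd4 was at 74.4, 89.1 and 72.3 in wild-type cells at 0, 6 and 24 h, and at 95.1 and 136 with EGTA at 6 and 24 h. RNA integrity numbers were between 9.3 and 9.7. In such bulk RNA, fewer expressing cells and less RNA per cell cannot be told apart.

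**Figure D1:**
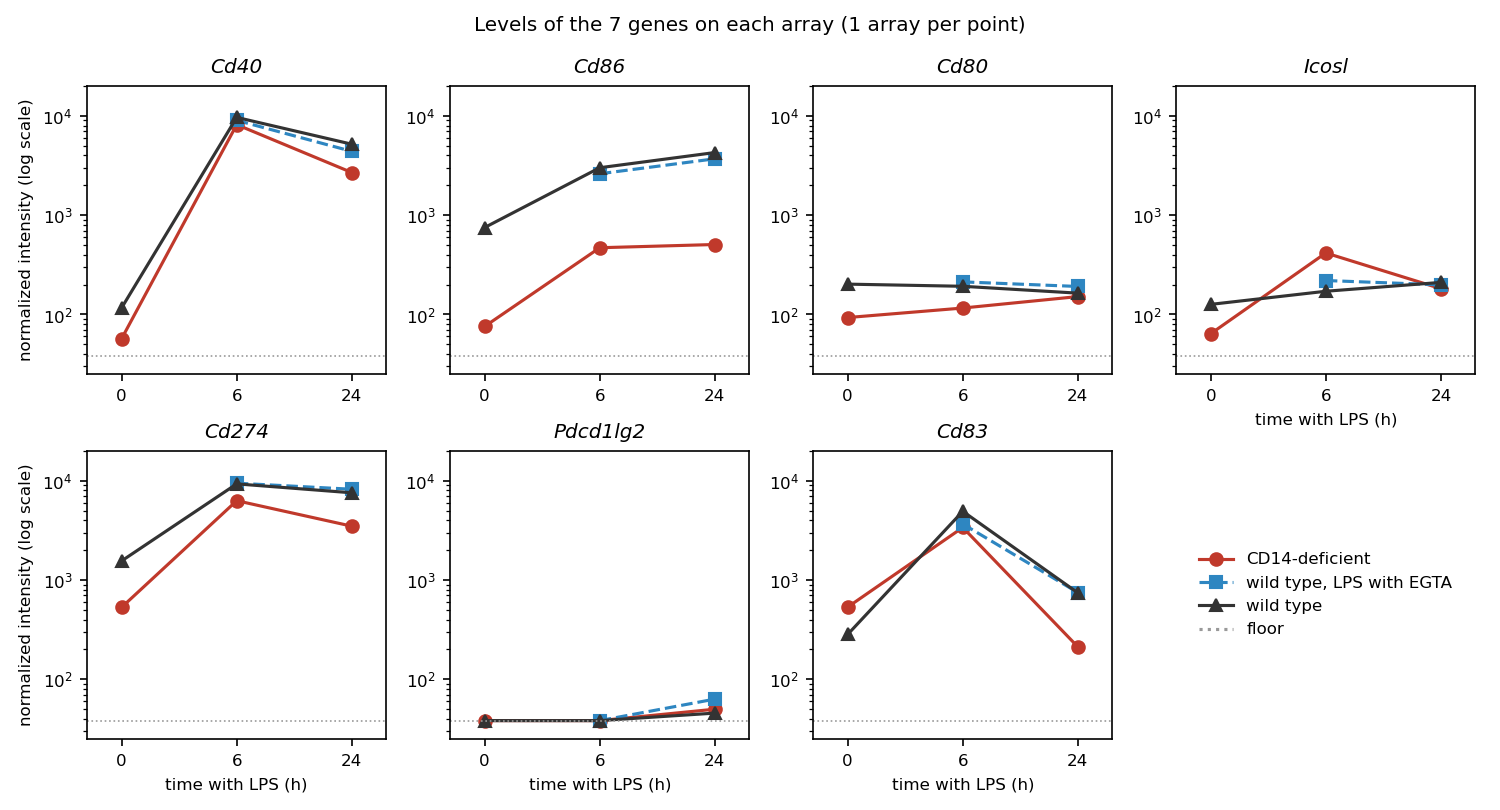
Normalized intensity (log axis) of the probe set standing for each of the 7 genes against hours with LPS, for CD14-deficient cells (circles), wild-type cells given LPS with EGTA (squares) and wild-type cells (triangles), each point being 1 array and the dotted line the floor of 38.4. Cd86 runs lower in CD14-deficient cells at all 3 times, while the EGTA squares lie close to the wild-type triangles.

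LPS was followed by higher Cd40, Cd86, Cd274 and Cd83 in both genotypes at 6 h, and by higher Cd40, Cd86 and Cd274 at 24 h. In CD14-deficient cells 5 of the 6 genes compared were at least 2-fold higher at 6 h than at 0 h and none lower, against 10.3% and 8.99% of all genes compared. In wild-type cells 4 were higher and none lower, against 10.5% and 9.50% of all genes. At 24 h over 0 h, CD14-deficient cells had 4 higher and 1 lower (8.29% and 8.77% of all genes), and wild-type cells had 4 higher and none lower (10.6% and 10.7%). The median difference of the 6 genes at 6 h was 2.68 on the log2 scale in CD14-deficient cells, against 2.29 in wild-type cells, beside medians over all genes of -0.13 and -0.12. An additive fit of all 8 arrays in limma, with LPS time, CD14 deficiency and EGTA as terms, gave the tests. With 3 residual degrees of freedom, its error reflects how far the effects fail to add up, and not the spread between cultures. It held 7292 genes, and Pdcd1lg2 did not enter. At 6 h, 4 of the 6 genes rose with an adjusted p under 0.05 (limma, Benjamini-Hochberg), and none fell, against 12.5% and 15.0% of all genes. At 24 h, 3 rose and none fell, against 12.5% and 14.2%.

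Cd40 had the largest LPS response of the 6 genes compared. Its level at 0, 6 and 24 h was 57.1, 8159 and 2688 in CD14-deficient cells, 9015 and 4394 at 6 and 24 h with EGTA, and 117, 9655 and 5186 in wild-type cells. All 3 arrays at 6 h lay above all 3 at 24 h, and both unstimulated arrays lay far below. The CD14-deficient level of 57.1 at 0 h was under the median of 88.2, and that at 6 h was below the wild-type level. The 6 h level was 143-fold the 0 h level in CD14-deficient cells, against 82.8-fold in wild-type cells, and at 24 h the folds were 47.1 and 44.5. In the additive fit Cd40 rose by 6.73 ± 0.22 (SE) at 6 h with an adjusted p of 0.000649 (limma) and by 5.55 ± 0.22 at 24 h with an adjusted p of 0.00163 (limma). From the 6 h to the 24 h arrays it fell by 1.18 on the log2 scale (adjusted p = 0.0178, limma), a call that was lost without the wild-type 6 h array, the wild-type 24 h array or either EGTA array (adjusted p between 0.0595 and 0.107). The second Cd40 probe set gave 40.6, 6388 and 1464 in CD14-deficient cells, 7427 and 2537 with EGTA, and 76.3, 7347 and 3398 in wild-type cells. The 2 probe sets thus kept the order of times in each genotype.

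Cd86, one of the CD28 and CTLA-4 ligands, rose with LPS and was low throughout in CD14-deficient cells. At 0, 6 and 24 h its level was 75.7, 470 and 506 in CD14-deficient cells, 2613 and 3697 at 6 and 24 h with EGTA, and 751, 3006 and 4273 in wild-type cells. The highest CD14-deficient array, at 24 h of LPS, lay below the unstimulated wild-type array. The CD14-deficient level at 0 h, 75.7, was under the median of 88.2. LPS was followed by a 6.21-fold and a 6.69-fold higher level at 6 and 24 h in CD14-deficient cells, and by a 4.002-fold and a 5.69-fold higher level in wild-type cells. The additive fit gave a rise of 2.29 ± 0.18 (SE) at 6 h and 2.66 ± 0.18 at 24 h, each with an adjusted p of 0.0022 (limma). The second probe set was at the floor, 224 and 212 in CD14-deficient cells, 902 and 1279 with EGTA, and 218, 916 and 1518 in wild-type cells.

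Cd80, the other CD28 and CTLA-4 ligand, did not pass the test of LPS at either time. Its level at 0, 6 and 24 h was 93.1, 116 and 151 in CD14-deficient cells, 213 and 191 at 6 and 24 h with EGTA, and 202, 192 and 164 in wild-type cells. The CD14-deficient arrays lay below the 5 wild-type arrays at every time, with a gap at 24 h of 151 against 164. The additive LPS effect was 0.16 ± 0.24 (SE) at 6 h and again at 24 h (adjusted p = 0.643 and 0.638, limma). A second Cd80 probe set gave 43.3, 80.8 and 60.8 in CD14-deficient cells, 122 and 86.2 with EGTA, and 65.7, 72.6 and 59.0 in wild-type cells, only 1 of which exceeded the median of all values. Of the remaining 2 sets, 1 was at the floor on 7 arrays and 1 on all 8.

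Icosl, the ICOS ligand gene, was highest in CD14-deficient cells at 6 h. At 0, 6 and 24 h its level was 64.0, 416 and 182 in CD14-deficient cells, 219.8 and 199 at 6 and 24 h with EGTA, and 126, 171 and 210.4 in wild-type cells. The same genotype thus held the highest and the lowest of the 8 arrays. The lowest, 64.0, was under the median of 88.2. LPS was followed at 6 h by a 6.51-fold higher level in CD14-deficient cells and a 1.36-fold higher level in wild-type cells. The gap between these responses was 2.26 on the log2 scale, outside the central 95% of 7091 genes, which ran from -1.22 to 1.39. A limma fit with genotype by LPS time and EGTA as an additive term, chosen after the data were seen, leaves 1 residual degree of freedom. This fit takes its error from how the EGTA effects at 6 and 24 h differ, and not from spread of the genotype gap. It gave 2.15 ± 0.30 (SE) for this gap with an adjusted p of 0.172 (limma), and 0 of 7292 genes passed, with 1191 at an unadjusted p under 0.05. The additive LPS effects of 1.52 ± 0.48 (SE) at 6 h and 1.17 ± 0.48 at 24 h did not pass (adjusted p = 0.0616 and 0.116, limma). The 6 h effect passed on the values as deposited (adjusted p = 0.0298) and with a trended variance prior (0.0490), and the 24 h effect without the CD14-deficient 6 h array (0.0484). A second Icosl probe set was at the floor on all 8 arrays.

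Cd274, encoding PD-L1, was induced in both genotypes and stayed high at 24 h. At 0, 6 and 24 h its level was 531, 6293 and 3484 in CD14-deficient cells, 9446 and 8207 at 6 and 24 h with EGTA, and 1557, 9296 and 7558 in wild-type cells. All 6 LPS arrays lay above both unstimulated arrays. The 6 h level was 11.8-fold the 0 h level in CD14-deficient cells, against 5.97-fold in wild-type cells. At 24 h the folds were 6.56 and 4.85. It rose by 3.01 ± 0.25 (SE) at 6 h with an adjusted p of 0.00226 (limma) and by 2.56 ± 0.25 at 24 h with an adjusted p of 0.00318 (limma).

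Pdcd1lg2, encoding PD-L2, was at the floor at 0 and 6 h in both genotypes and at 6 h with EGTA. At 24 h its level was 50.0 in CD14-deficient cells, 63.2 with EGTA and 45.7 in wild-type cells. All 3 values lie under the median of all probe sets, so no difference is given.

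Cd83 had a brief peak at 6 h. At 0, 6 and 24 h its level was 534, 3383 and 212 in CD14-deficient cells, 3664 and 747 at 6 and 24 h with EGTA, and 283, 4921 and 742 in wild-type cells. The 3 arrays at 6 h lay above all others, and CD14-deficient cells at 24 h were the lowest. It was 6.34-fold higher at 6 h than at 0 h in CD14-deficient cells and 17.4-fold higher in wild-type cells, a gap of -1.45 on the log2 scale that lay outside the same central range of genes (adjusted p = 0.223 in the genotype by time fit, limma). It rose by 3.21 ± 0.60 (SE) at 6 h (adjusted p = 0.0143, limma), a call lost without the wild-type 0 h, the wild-type 6 h or the CD14-deficient 6 h array (adjusted p between 0.0669 and 0.0794). Its additive effect at 24 h was 0.21 (adjusted p = 0.817, limma). This effect pools opposite changes, since the 24 h level was 2.62-fold higher than at 0 h in wild-type cells and 2.52-fold lower in CD14-deficient cells.

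From 6 to 24 h, CD14-deficient cells had 3 of the 6 genes lower by 2-fold or more (Cd40, Icosl and Cd83, against 6.16% of all genes), 2 were lower with EGTA (Cd40 and Cd83, 6.14%) and 1 in wild-type cells (Cd83, 5.56%). Cd40 lay close to the threshold, falling 2.05-fold with EGTA and 1.86-fold in wild-type cells. Its second probe set fell 2.93-fold with EGTA and 2.16-fold in wild-type cells. No gene was 2-fold higher in any of the 3 series, beside 4.32%, 5.60% and 5.50% of all genes. The 24 h level of Cd83 was 0.0627 times its 6 h level in CD14-deficient cells, 0.204 times with EGTA and 0.151 times in wild-type cells. In the additive fit, 2 genes fell, Cd40 and Cd83, and none rose, against 7.95% and 9.82% of all genes. Cd83 fell by 3.01 ± 0.51 (SE, adjusted p = 0.0204, limma), which was lost without the wild-type 6 h, the CD14-deficient 6 h or either EGTA array (adjusted p between 0.0570 and 0.116).

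**Figure D2:**
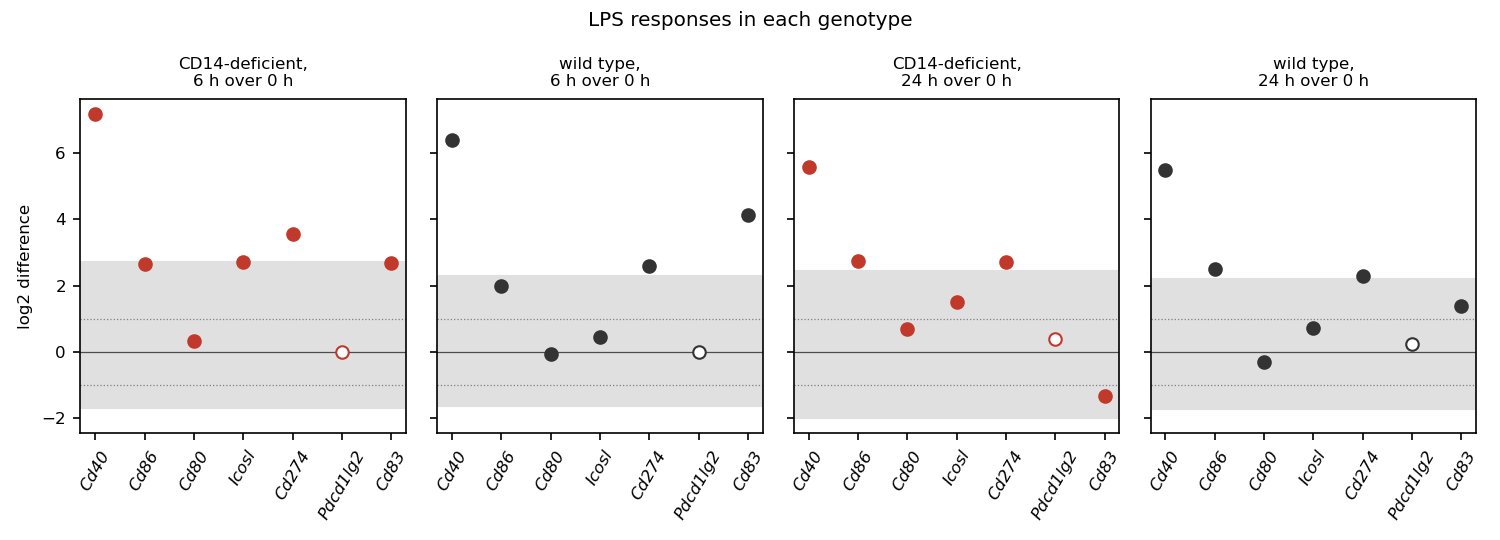
Log2 difference of the LPS arrays over the 0 h array of the same genotype, CD14-deficient cells left of wild-type cells at 6 h and then at 24 h, with 1 point per gene (open where the gene was too dim to compare), grey bands for the central 95% of all genes compared and dotted lines at 2-fold. At 24 h Cd83 is at -1.33 in CD14-deficient cells and at 1.39 in wild-type cells, and Icosl at 6 h is at 2.70 and 0.44.

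Markers of dendritic cells, listed to look for another cell type, summed to 1815 in CD14-deficient cells at 6 h of LPS, 1829 with EGTA and 1595 in wild-type cells, against 924 in unstimulated CD14-deficient cells and 824 in unstimulated wild-type cells. Of the 12 markers measured, 6 were at the floor on all 8 arrays, including Flt3, Zbtb46 and Ccr7. Fscn1 and Ccl22 were at least 2-fold higher at 6 h of LPS than at 0 h in both genotypes. Itgax was at 144 at 6 h against 299 at 0 h in wild-type cells, and Batf3 at 63.2 against 134 in CD14-deficient cells. The part of this sum in the LPS responses of the 7 genes was not tested.

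CD14 deficiency was accompanied by lower Cd86 at every time, and no other gene of the 7 passed the test. Between CD14-deficient and wild-type cells at 0 h, 4 of the 6 genes were lower by 2-fold or more and none was higher, against 3.20% and 1.40% of all genes compared. At 6 h of LPS 1 was lower and 1 higher (3.08% and 2.53%), and at 24 h 3 were lower and none higher (6.21% and 5.21%). The median difference of the 6 genes was -1.07 at 0 h, -0.55 at 6 h and -1.03 at 24 h, beside medians over all genes of 0.02 at each time. The additive fit called 1 of the 6, against 0.384% of all genes lower and 0.0686% higher with CD14 deficiency. The comparisons at 6 and 24 h against 0 h share the 0 h arrays of their genotype, and the contrasts between genotypes use the same arrays as the LPS responses.

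Cd86 was 9.91-fold lower in CD14-deficient than in wild-type cells at 0 h, 6.39-fold lower at 6 h and 8.44-fold lower at 24 h. In the additive fit it fell by 3.02 ± 0.16 (SE) on the log2 scale with an adjusted p of 0.00176 (limma). Leaving out each array in turn gave effects between -3.18 and -2.88 with adjusted p between 0.00755 and 0.0287 (limma). Without the filter on dim genes the adjusted p was 0.114. The second probe set was also lower at each time, by 4.09-fold at 6 h and 7.16-fold at 24 h. At 0 h it was lower by at least 5.69-fold, since the CD14-deficient array was at the floor.

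The PD-L1 gene Cd274 was 2.93-fold lower in CD14-deficient cells at 0 h, 1.48-fold lower at 6 h and 2.17-fold lower at 24 h. Its additive effect of -1.08 ± 0.21 (SE) did not pass (adjusted p = 0.118, limma). It passed on the values as deposited (adjusted p = 0.0401). Cd40 was 2.04-fold lower at 0 h, 1.18-fold lower at 6 h and 1.93-fold lower at 24 h, with an additive effect of -0.74 ± 0.19 (adjusted p = 0.159). Cd80 was 2.17-fold, 1.66-fold and 1.08-fold lower at the 3 times, with an additive effect of -0.65 ± 0.21 (adjusted p = 0.210). With the probe sets that stand for them, these 3 genes were lower in CD14-deficient cells at each of the 3 times. For Cd80 this did not hold throughout, since its second set was at 80.8 in CD14-deficient cells against 72.6 in wild-type cells at 6 h, and the main set at 24 h was at 165 against 126 on the values as deposited.

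Icosl and Cd83 did not keep a direction. Icosl was -0.98 at 0 h, 1.28 at 6 h and -0.21 at 24 h on the log2 scale, CD14-deficient minus wild type. Cd83 was 0.91, -0.54 and -1.81 at the same times, the last being 3.50-fold lower in CD14-deficient cells. Between genotypes the change of Cd83 from 0 to 24 h of LPS differed by -2.72, outside the central 95% of genes (-1.53 to 1.40). The genotype by time fit gave -2.83 ± 0.30 (SE) with an adjusted p of 0.131 (limma), and again 0 of 7292 genes passed, with 1422 at an unadjusted p under 0.05. Their additive effects were 0.03 ± 0.41 for Icosl and -0.48 ± 0.51 for Cd83 (SE, adjusted p = 0.976 and 0.642, limma).

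EGTA was followed by no 2-fold difference in any of the 6 genes compared. At 6 h of LPS none was 2-fold higher or lower with EGTA than without it, against 0.549% and 0.267% of all genes, and at 24 h none was, against 1.02% and 1.11%. With the probe sets that stand for the genes, the differences lay between -0.43, for Cd83, and 0.36, for Icosl, at 6 h. The second Cd80 set was higher by 0.75, at 122 with EGTA against 72.6 without it. At 24 h the differences of the probe sets that stand for the genes lay between -0.24, for Cd40, and 0.22, for Cd80. The second Cd40 set was at -0.42 and the second Cd80 set, too dim to compare there, at 0.55. In the additive fit 0 of the 6 genes passed in either direction, beside 0% of all 7292 genes, and none had an unadjusted p under 0.05 (limma). The largest effect was -0.28 ± 0.18 (SE), for Cd86. The EGTA term of this fit is not the direct difference, because its LPS terms also draw on the CD14-deficient arrays. For Cd83 the term was 0.14, where the direct differences were -0.43 at 6 h and 0.0094 at 24 h. For Icosl it was -0.11, where they were 0.36 and -0.081. This does not show that EGTA left the genes alone, since each time point is 1 array and EGTA alone was not measured.

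**Figure D3:**
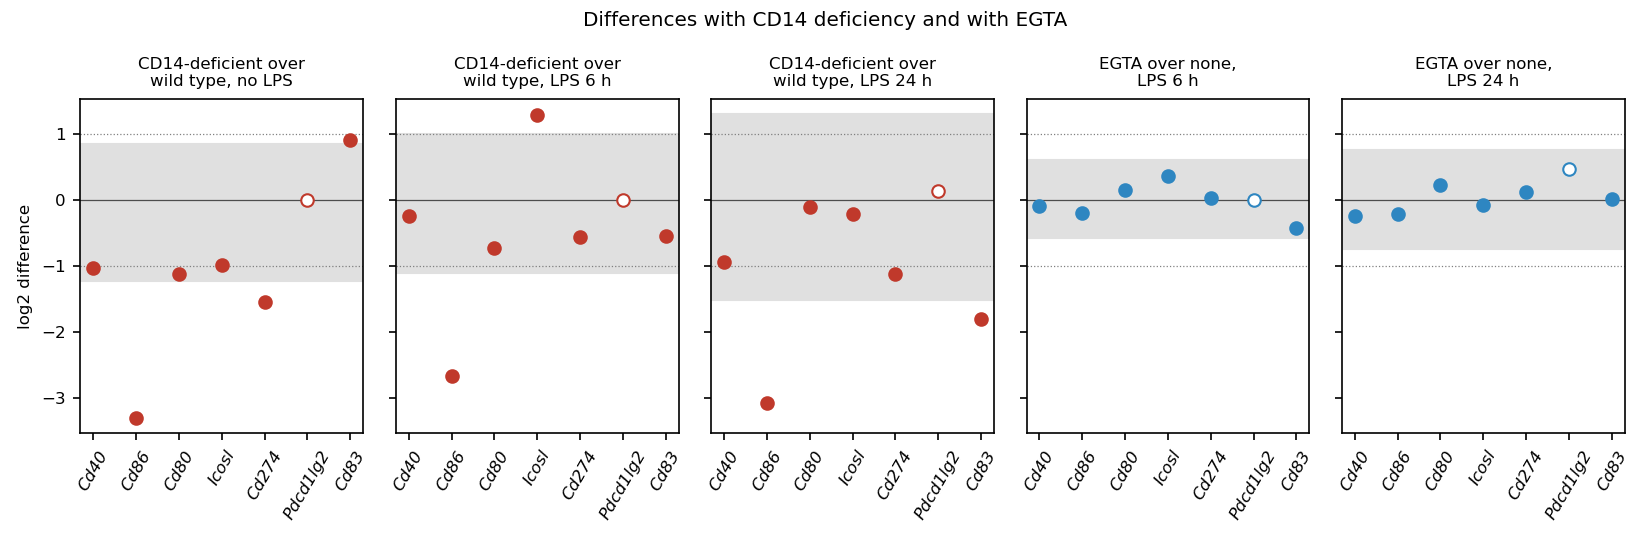
Log2 differences of CD14-deficient over wild-type cells at 0, 6 and 24 h of LPS (left 3 panels, red) and of LPS with EGTA over LPS alone at 6 and 24 h (right 2 panels, blue), 1 point per gene from 1 array over 1 array, open where too dim to compare, with grey bands for the central 95% of all genes. Cd86 lies at -3.31, -2.68 and -3.08 with CD14 deficiency and at -0.20 and -0.21 with EGTA.

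**Figure D4:**
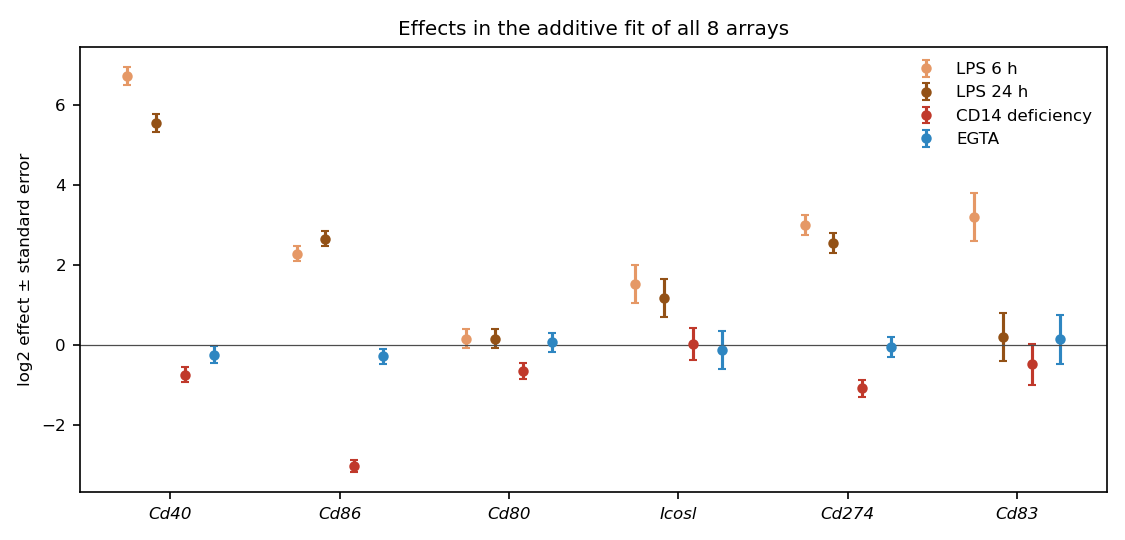
Log2 effects of LPS at 6 h, LPS at 24 h, CD14 deficiency and EGTA in the additive fit of all 8 arrays, with standard errors as bars, for the 6 genes that entered. Cd40 stands at 6.73 and 5.55 for LPS, and Cd86 at -3.02 is the gene called for CD14 deficiency. The EGTA term also depends on the CD14-deficient arrays through the LPS terms, so it can differ from the direct EGTA differences.

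Genes of the surrounding pathway were described from 6 lists. Of the CD40 signalling list, which holds the TRAF adaptors and NF-kB subunits that act below the receptor, 10 of 13 compared were at least 2-fold higher at 6 h of LPS in CD14-deficient cells, against 10 of 12 in wild-type cells. Of all genes compared, 10.3% and 10.5% were higher by 2-fold or more. The list's median log2 difference was 2.63 and 2.03, beside -0.13 and -0.12 over all genes. At 24 h, 6 of 13 were higher in CD14-deficient cells, against 9 of 12 in wild-type cells, beside 8.29% and 10.6% of all genes. Traf1, an adaptor of this receptor family, was at 42.9, 1831 and 619 in CD14-deficient cells at 0, 6 and 24 h and at 93.8, 1623 and 1599 in wild-type cells. In the genotype contrast at 24 h, 6 of 13 were lower and none higher in CD14-deficient cells, against 6.21% and 5.21% of all genes, and Tnfaip3, an inhibitor of NF-kB, was at 542 in CD14-deficient cells against 1902 in wild-type cells. With EGTA none of 13 was 2-fold different at either time.

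Among 10 listed ligands of the TNF family, 7 were measured and 4 exceeded the median on some array. At 6 h of LPS 2 of the 2 compared were at least 2-fold higher in CD14-deficient cells (median log2 difference 2.70). In wild-type cells 3 of 4 were (1.97). The medians do not rest on the same genes. They also hold lower bounds, since Tnfsf4 in CD14-deficient cells and Tnfsf8 in wild-type cells were at the floor at 0 h. The shares of all genes were 10.3% in CD14-deficient and 10.5% in wild-type cells. Tnfsf4, the OX40 ligand gene, was at 275 and 43.2 in CD14-deficient cells at 6 and 24 h of LPS, against 545 and 432 in wild-type cells. The lowest of these values, in CD14-deficient cells at 24 h, was close to the floor. Tnfsf9, the 4-1BB ligand gene, was at 144, 852 and 165 in CD14-deficient cells at 0, 6 and 24 h and at 137, 679 and 372 in wild-type cells. Of 8 listed B7 relatives outside the 7 genes, 3 were measured, and only Vsir, encoding the inhibitory molecule VISTA, exceeded the median. Vsir was at 1252, 355 and 730 in CD14-deficient cells at 0, 6 and 24 h and at 771, 286 and 301 in wild-type cells, so it was lower on each LPS array than on the unstimulated array of its genotype.

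Of the T cell receptors that bind these molecules, Ctla4, Icos, Pdcd1 and Cd40lg were at the floor on all 8 arrays. Cd28 was measured, at 3071, 501 and 276 in CD14-deficient cells at 0, 6 and 24 h and at 2746, 1160 and 435 in wild-type cells. It was lower on every LPS array while the T cell receptor genes Cd3d, Cd3e and Cd3g were at the floor. Of other ligands and receptors at the contact with T and natural killer cells, 13 were compared in CD14-deficient and 14 in wild-type cells. At 6 h of LPS 6 and 4 of them were at least 2-fold higher, beside 10.3% and 10.5% of all genes. Their median log2 differences were 0.96 and 0.29. Icam1, the adhesion ligand of LFA-1, was at 518, 9406 and 4663 in CD14-deficient cells and at 1087, 8213 and 6802 in wild-type cells. Cd200, whose product binds an inhibitory receptor on myeloid cells, was at 102, 1036 and 638 in CD14-deficient cells and at 187, 1354 and 1411 in wild-type cells. Of the genes known to regulate the 7 molecules, 4 of 7 were higher at 6 h in CD14-deficient cells. In wild-type cells 6 of 9 were, with medians of 1.20 and 1.22 and shares of all genes of 10.3% and 10.5%. Irf1, a transcription factor induced by interferons, was at 443, 4231 and 1825 in CD14-deficient cells and at 580, 5098 and 4801 in wild-type cells. At 24 h it was 2.63-fold lower in CD14-deficient than in wild-type cells.

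Genes whose log2 levels ran most like those of the 7 were ranked by Pearson's r over the 8 arrays among 3664 genes. These values describe 8 arrays that share treatments and carry no test. Cd40 ran most like Socs3 (r = 0.996), Jak2 (0.994) and Icam1 (0.992). Cd274 ran most like Nt5c3 (0.998), Usb1 (0.998) and Zup1 (0.996). Cd86 ran most like Pou3f1 (0.987), P2ry14 (0.980) and Fcgr4 (0.977). Cd83 ran most like Gabpb1 (0.985), Icosl like Ptpn23 (0.983), and Cd80 like Qpctl at a lower r of 0.888. Between members, Cd40 and Cd274 had an r of 0.962, and Cd86 and Cd83 one of 0.362.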

How the data were processed

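Total RNA of 8 cultures was hybridised to Affymetrix arrays, 1 per group. The deposited values are linear intensities, made by the authors with MAS5 per the submitters' processing notes. Its version, the scaling target and the genome build are not given in the sources used here. The 2% trimmed means of the arrays lay between 314 and 527. The probe-to-gene table named 1 gene for 20393 probe sets, several for 691 and none for 1606. Probe sets of several genes were not used.

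Values were quantile normalized over the 8 arrays, raised to a floor (the 40th percentile) and put on the log2 scale. Differences of 1 array over 1 array were counted at 2-fold. An additive model was fitted with limma 3.58.1 (R 4.3.3) to genes whose brightest array exceeded the median of all values, with eBayes and Benjamini-Hochberg adjustment at 0.05, and was tested on simulated data first. A fit of genotype by LPS time was added after the data were seen. On simulated data it recovered the sizes of planted changes but passed none of them, so a p that misses the threshold there says little. Tables were handled with pandas 2.3.3 and numpy 2.4.6 in Python 3.11.15. The number of arrays limits the precision, and the additive p-values measure departure from additivity only.

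Named genes are all 7 members and, from those the rule allows, some of the 3 largest differences per list and comparison with both arrays above the floor and some of the 3 genes most like each member. Marker genes were named after their values were seen. Members and lists were chosen with earlier results of these data known. Alternatives tried were the values as deposited, median scaling, a lower floor, 16 added in place of the floor, the mean of a gene's probe sets, other fold thresholds, no filter on dim genes, a trended prior, fewer arrays and each array left out. Genes of the lists that the table of named genes does not hold were not analysed here.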

Additional observations from a re-analysis of the deposited data

Results flagged for a closer look

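In 12 pairs of differences a gene moved one way in one group and the opposite way in the other, each on 1 array per group. The differences between genotypes were tested in a limma fit with genotype by LPS time, added after the data were seen, and none passed (adjusted p between 0.131 and 0.429, limma). That fit's error holds no spread of the CD14-deficient arrays. The differences that involve EGTA were not tested. All values are log2 differences. The 6740 genes compared between EGTA and no EGTA at 6 h had an SD of 0.29, and several of the values below are smaller than that.

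Cd83 at 24 h over 0 h of LPS was -1.33 in CD14-deficient cells, against 1.39 in wild-type cells. CD14-deficient minus wild type, Cd83 was -0.54 at 6 h and 0.91 at 0 h, and it was -1.81 at 24 h against the same 0.91 at 0 h. With EGTA over LPS alone it was 0.0094 at 24 h and -0.43 at 6 h.

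Icosl from 6 to 24 h was -1.19 in CD14-deficient cells and -0.14 with EGTA, against 0.30 in wild-type cells. CD14-deficient minus wild type, it was 1.28 at 6 h and -0.98 at 0 h, and -0.21 at 24 h against the 1.28 at 6 h. With EGTA over LPS alone it was -0.081 at 24 h and 0.36 at 6 h.

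Cd80 in CD14-deficient cells was 0.32 at 6 h over 0 h, against -0.072 in wild-type cells. At 24 h over 0 h it was 0.70 in CD14-deficient cells, against -0.30 in wild-type cells, and from 6 to 24 h it was 0.38 and -0.23.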

How the results depend on the processing

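No paired analysis was possible because each group holds 1 array. No difference of 2-fold or more and no called effect changed direction under any alternative run, while 15 smaller differences between 2 arrays and 38 uncalled additive effects changed sign. Of 432 differences between 2 arrays recomputed, 379 moved by less than 0.29 on the log2 scale, and 53 moved by more. This limit is the SD over all genes of EGTA against no EGTA at 6 h. The 432 include the runs with a lower floor and without the filter, which could not move these differences. The probe sets standing for the genes compared were above the floor on every array, so those runs are no check. Counts of genes past 2-fold that moved by more than 1.5 times were as follows, and smaller moves took CD14-deficient over wild type at 24 h between 2 and 4 genes in place of 3. For 24 over 6 h in wild-type cells, 2 genes in place of 1 were past the threshold on the values as deposited, with the mean of probe sets and at 1.5-fold. With EGTA the same contrast had 1 in place of 2 as deposited and at 3-fold. EGTA over LPS alone at 6 h had 1 in place of 0 as deposited, Cd83 at -1.11, where the median of all genes was -0.78. CD14-deficient over wild type at 0 h had 2 in place of 4 with 16 added and with the mean of probe sets, and 1 at 3-fold. At 6 h it had 1 in place of 2 with the mean of probe sets and at 3-fold. At 24 over 0 h, CD14-deficient cells had 3 in place of 5 at 3-fold. The 18 gaps between the genotypes' LPS responses moved by less than 0.29 in the added genotype by time fit. That fit can shift a gap only through the EGTA arrays, so this closeness was largely built in and is no check. In the additive fit, CD14 deficiency had 2 genes in place of 1 as deposited and 0 without the filter on dim genes. For 24 over 6 h the fit had 0 genes in place of 2 without that filter or without the EGTA arrays, and between 0 and 2 with 1 array left out. The cause was not tested. As deposited, the median of all genes at 24 over 0 h in wild-type cells was -0.66. There Cd83 was no longer 2-fold higher and Cd80 was at least 2-fold lower, so the count stayed at 4. Without the filter the additive LPS calls for Cd83 at 6 h and Cd274 at 24 h were also lost (adjusted p = 0.127 and 0.0524, limma). Genes at or near the floor, such as Pdcd1lg2, are limited by background signal.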
